A study of Mus musculus with 2 samples.

Results

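The pericyte identity markers described here are 10 genes, Cspg4, Mcam, Anpep, Cd248, Des, Higd1b, Cox4i2, Ndufa4l2, Art3 and Tbx18. They were taken by name: every probe for a gene transcript on the array whose RefSeq accession belongs to one of them was read, which gave 12 probes in 21 spots, out of 55681 probes for 20883 named genes. All 10 genes had a probe well above background on both arrays, as did 14173 genes of the whole series. The cells were primary cavernous pericytes of C57BL/6 mice, taken from the penis and grown in DMEM with fetal bovine serum and human pigment epithelium-derived factor, a medium that both conditions shared. The cells were exposed to normal glucose, labelled 5 mmol, or to high glucose, labelled 30 mmol, for 72 h. RNA of 3 samples per condition was pooled and hybridised to 1 Agilent 1-colour array, so there are 2 arrays, 1 per condition, no replicate check and no p-value. Every difference below is between these 2 pools, and the number of arrays limits the precision. An osmotic control was not analysed here.

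Pericytes are mural cells that sit in the basement membrane of capillaries and small vessels and wrap the endothelium. No single gene defines them, and they are recognised by combinations of surface proteins, a muscle-type intermediate filament, transcription factors of the mural lineage and, in adult tissue, a set of mitochondrial proteins otherwise known from hypoxia. Many of these genes are shared with smooth muscle cells and fibroblasts. In the cavernous tissue of the penis pericytes line the small vessels and sinusoids that supply erection.

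High and normal glucose differed little in these genes. Of the 10, 8 gave a signal of at least 128 on both arrays, and their log2 ratios of high over normal glucose lay between -0.26 and 0.00, with Des and Cspg4 at the low end and Mcam at the high end. The other two, Higd1b and Art3, were dim. Art3 was the only gene of the 10 at least 2-fold different, 2.32-fold higher in high glucose, from a signal of 28.8 in normal glucose. That is 1 of 10 markers, or 10%, where 0.917% of all measured genes differed by at least 2-fold in either direction and 0.501% were higher; with 10 genes a single dim probe makes up that share. At 1.2-fold the count was again Art3 alone, 10% against 12.3% of all measured genes. With each array centred on its median instead, Des at -0.32 and Cspg4 at -0.27 also passed 1.2-fold, 3 of 10 against 13.4% of all measured genes, and Des at -0.27 did so with median pixels less local background, 2 of 10 against 12.2%. Below 0 were 7 of 10 log2 ratios, where 53.2% of all measured genes were below 0. The median log2 ratio of the 10 was -0.12, and that of all measured genes -0.01.

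Des, desmin, and Cspg4, the NG2 proteoglycan, were the 2 markers whose ratios lay farthest below 0, so the 250 bases before their start sites are shown, from RefSeq on build GRCm38.p6. Both windows lie on the plus strand, chr1:75360042-75360291 for Des and chr9:56864854-56865103 for Cspg4, upstream of the start of each gene. Capitals mark GC boxes (GGGCGG, or CCGCCC on the other strand), the site of Sp family factors, and E-boxes (CANNTG), the site of helix-loop-helix factors, which did not overlap each other.
Des: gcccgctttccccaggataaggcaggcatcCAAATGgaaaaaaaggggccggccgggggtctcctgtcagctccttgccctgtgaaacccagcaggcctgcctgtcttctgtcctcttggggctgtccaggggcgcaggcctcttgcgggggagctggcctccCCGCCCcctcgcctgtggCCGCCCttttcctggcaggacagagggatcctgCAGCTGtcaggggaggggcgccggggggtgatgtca
Cspg4: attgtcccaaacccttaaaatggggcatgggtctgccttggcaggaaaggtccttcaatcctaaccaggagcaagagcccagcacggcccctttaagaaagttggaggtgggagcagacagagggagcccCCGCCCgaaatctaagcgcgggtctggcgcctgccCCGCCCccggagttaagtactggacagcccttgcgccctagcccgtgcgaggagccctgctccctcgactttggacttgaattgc
Both windows held 2 GC boxes, a motif found in 32.7% of the 32851 promoter windows of this length. Des had E-boxes starting 220 and 36 bases before the start and Cspg4 had none, against 66.2% of all windows with at least 1. Neither held a TATA box (TATAAA, in 12.4% of windows) or a CArG box, the site of serum response factor (1.47%), on either strand. GC content was 67.2% for Des and 60.4% for Cspg4, with a median of 52.4% over all windows. RefSeq windows were read for 6 of the 10 markers, and GC boxes were not particular to these 2. The Mcam window, of a gene with a log2 ratio of 0.00, had 5 GC boxes and 73.6% GC. The Anpep window had 3 and 72.8%. The Tbx18 and Art3 windows had no GC box. A match describes these letters and is no evidence of binding.

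**Figure D1:**
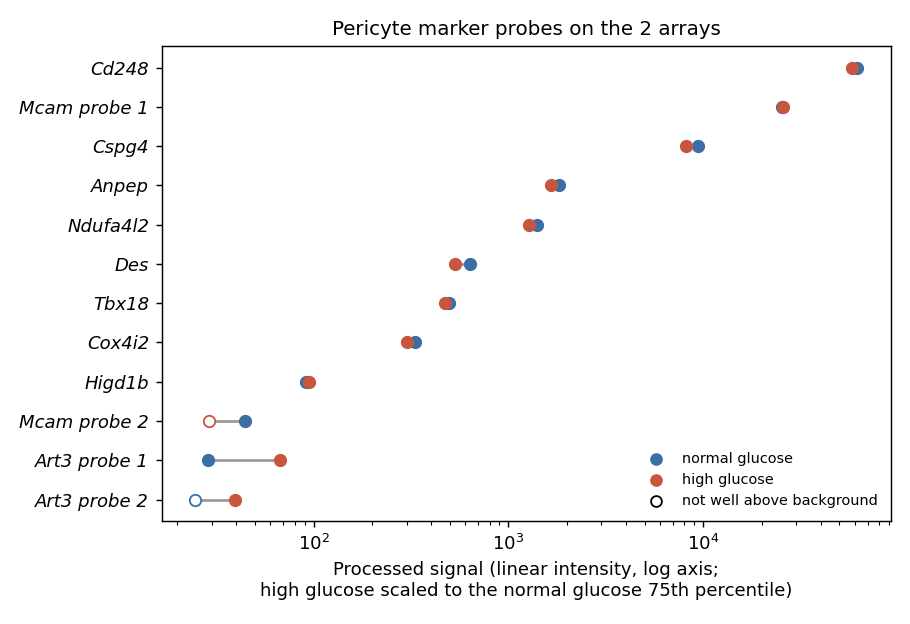
Processed signal (linear intensity on a log axis) of the 12 probes of the 10 markers in normal glucose (blue) and high glucose (red, scaled to the normal glucose array's 75th percentile). Open circles are not well above background. Paired points nearly coincide for 9 probes, from Higd1b up to Cd248, and stand apart for the second Mcam probe and both Art3 probes at the dim end.

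The brightness of a spot depends on its probe sequence as well as on the transcript, so the place of each probe among all 55681 is a description of how well it was measured and does not rank the transcripts. The Cd248 probe was brighter than 97.8% of all probes in normal glucose and 97.7% in high glucose. Mcam followed at 95.7% on both arrays and Cspg4 at 91.6% and 90.9%. Anpep, Ndufa4l2, Des, Tbx18 and Cox4i2 lay between 81.2% and 68.5% in normal glucose and between 80.5% and 67.6% in high glucose. These 8 genes thus kept nearly the same place on both arrays. Higd1b, at 56.4% and 56.6%, was just above the middle. Art3 moved from 44.2% to 52.8%. For comparison, the 308 negative control spots had medians of 6.04 (normal glucose) and 5.37 (high glucose), with maxima of 170.1 and 113.7. Art3 and Higd1b lie below these maxima, while the 8 brighter markers lie above them on both arrays.

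Among the surface proteins, Cspg4 was lower in high glucose. It encodes the NG2 proteoglycan of mural cells and glial progenitors, which binds growth factors and collagen. It gave 9453 ± 945 in normal and 7759.8 ± 776 in high glucose, where ± is the error that the scanner software assigns to a single spot. The log2 ratio, after each array was set to its own 75th percentile, was -0.20. Probes printed 10 times on the array give a second measure of error: at signals above 4096 the spot-to-spot SD of the log2 ratio was 0.032 (median over 94 such probes). The Cspg4 ratio was 6.42 times that SD but about the same as the propagated software error, 0.20. Of 4709 measured genes in the same signal band, 4.69% had a ratio at least as far from 0. The gene rests on 1 spot, and both error measures are technical and leave out the spread between cultures.

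Mcam, the adhesion molecule CD146, which pericytes share with endothelium and smooth muscle, did not differ by more than the repeat-spot SD on its bright probe. That probe gave 25507 ± 2551 in normal and 24211 ± 2421 in high glucose, a log2 ratio of 0.00. The sign of this value turned with quantile normalization, median centring and both pixel-based settings, so it has no direction. A second Mcam probe was dim. It gave 44.4 ± 7.80 in normal glucose and 27.6 ± 6.22, not well above background, in high glucose. That is 1.52-fold lower, a log2 ratio of -0.61 with a software error of 0.41, or -0.42 from median pixels. The 2 probes of Mcam thus gave different ratios, the second one near background, and the bright one represents the gene here.

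Anpep, aminopeptidase N or CD13, cleaves peptides at the cell surface and is also carried by fibroblasts and myeloid cells. It gave 1811 ± 181 in normal and 1556 ± 156 in high glucose, with a log2 ratio of -0.14. Dim spots within 2 rows and columns of the Anpep spot were themselves shifted by -0.23 on the log2 scale, while the 60 measured gene spots within 5 rows and columns had a median log2 ratio of -0.02; the part of this shift in the Anpep value was not tested. Cd248, endosialin, is a C-type lectin of pericytes and activated fibroblasts. It gave 61844 ± 6184 in normal and 54704 ± 5470.4 in high glucose, a log2 ratio of -0.10. Both ratios were about 3 times the repeat-spot SD of their signal bands (3.16 and 3.04 times) and below the software error of 0.20. They were ordinary among genes of their band, since 22.0% of 4875 genes for Anpep and 22.2% of 4709 for Cd248 lay at least as far from 0.

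Relatives of the surface proteins showed no common direction with them. Vcan, a large matrix proteoglycan set beside Cspg4, had a log2 ratio of 0.12, and the dim Cspg5 had 0.56 from a signal of 45.5 in normal glucose. Bcan had 0.28, with -0.05 on its other measured probe. The dim Acan had -0.20, the same as Cspg4, from 46.2 in normal glucose. Alcam, an adhesion molecule related to Mcam, had 0.01, and Bcam had 0.18. Erap1, an aminopeptidase set beside Anpep, had -0.11 at a dim 110 in normal glucose. Of the other aminopeptidases of the Anpep family, Lnpep and Npepps each had 0.06 and Rnpep -0.02. Enpep, also a pericyte enzyme, had -0.27 at a dim signal of 71.4 in normal glucose. Thbd, thrombomodulin, of the same lectin group as Cd248, had -0.11 from 11288 in normal to 9865 in high glucose. Its relative Cd93 had 0.30 at a signal of 175.

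Des was the best measured marker, because its probe was printed 10 times on each array. Desmin is the intermediate filament protein of muscle cells and of pericytes. In normal glucose the lowest of the 10 spots was 574, the median 635 and the highest 676. In high glucose the lowest was 481, the median 503 and the highest 516. Every spot was dimmer in high glucose, and the ranges did not overlap before scaling or after it, when the high glucose spots ran from 509 to 545. The mean was 634.5 ± 29.2 in normal and 503 ± 11.1 in high glucose (SD over 10 spots of 1 array).

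The log2 ratio of Des was -0.26 ± 0.08 (SD over 10 spots, which are repeat measurements of 1 pool and not replicates). All 10 spot ratios were below 0, from -0.35 to -0.08. The spots were spread over the array, from row 48 to row 357 of 384 and from column 13 to column 150 of 164, and the 622 measured gene spots around them had a median log2 ratio of 0.00. Over all 283 measured probes printed 10 times, 11 had spots entirely lower in high glucose without overlap, or 3.89%, and 17 entirely higher, or 6.01%. Des ranked eighth lowest among them by log2 ratio. Among 4875 measured genes of its signal band, 6.52% were at least as far from 0.

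**Figure D2:**
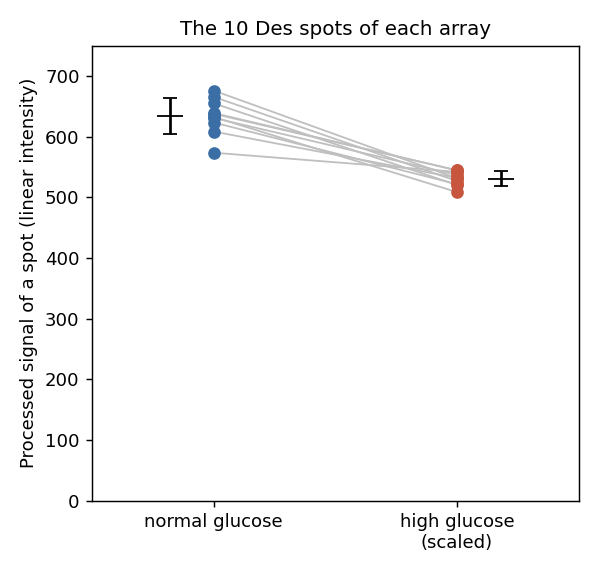
Processed signal (linear intensity) of each of the 10 Des spots in normal glucose and in high glucose, the latter scaled to the normal glucose array's 75th percentile. Lines join the same array position, and bars give the mean ± SD over spots. The spots run from 574 to 676 in normal glucose and from 509 to 545 in high glucose, without overlap.

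Of the 5 intermediate filament genes set beside Des, the 3 measured had no common direction. Vim, vimentin, the main filament protein of cultured mesenchymal cells, gave 264709 in normal and 261583 in high glucose, a log2 ratio of 0.06. Nes, nestin, had 0.19. Synm, synemin, a partner of desmin in the filament, had -0.10, and its 3 other measured probes ran from -0.28 to 0.35. Gfap and Prph were not detected well above background on either array.

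Higd1b, Cox4i2 and Ndufa4l2 are mitochondrial genes enriched in mural cells of adult tissue. Cox4i2 encodes the alternative form of subunit 4 of cytochrome oxidase, used at low oxygen. It gave 332 ± 33.9 in normal and 284 ± 29.1 in high glucose, a log2 ratio of -0.14. Between signals of 128 and 512 repeat spots had a median SD of 0.10, and the ratio was 1.42 times that. Dim neighbours of the Cox4i2 spot were shifted by -0.16, a value of the same size as the ratio, and its part in the ratio was not tested. Among genes of this band, 42.9% were at least as far from 0.

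Ndufa4l2 is a hypoxia-inducible relative of a cytochrome oxidase subunit and is known to restrain respiration. It gave 1398 ± 140.0 in normal and 1205 ± 121 in high glucose, a log2 ratio of -0.14 and 3.08 times the repeat-spot SD of 0.044. Higd1b belongs to a family of small mitochondrial membrane proteins named for their induction by hypoxia. Its dim spot gave 91.1 ± 10.6 and 90.0 ± 10.3, a log2 ratio of 0.06, far within the repeat-spot SD of 0.29 at signals below 128. Its median pixels gave -0.11, so Higd1b had no direction. The 3 genes were therefore near or below 0 with no difference past 1.2-fold.

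The widely expressed relatives of these 3 genes were flat. Cox4i1, the standard form of the oxidase subunit, had a log2 ratio of 0.00 at 130534 in normal and 123771 in high glucose. Ndufa4 had 0.00 at 64215 and 60613. Higd1a and Higd2a had -0.02 each. The mural forms Cox4i2 and Ndufa4l2 thus lay at -0.14 beside partners at 0.00; this contrast was seen in 1 array pair and was not tested. Epas1, the hypoxia-inducible factor of vessel cells, had -0.08 on its brightest probe and between 0.07 and 0.26 on its other measured probes.

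Tbx18 encodes a T-box transcription factor that marks mural cells in many organs and is needed for vascular and ureteral smooth muscle. It gave 495 ± 49.9 in normal and 447 ± 45.0 in high glucose, a log2 ratio of -0.07, within the repeat-spot SD of 0.10. Measured gene spots within 5 rows and columns of it had a median of -0.08, close to its own value. Of its family, Tbx15, a near relative, had -0.04, Tbx2 -0.06, Tbx3 0.05, Tbx4 -0.01 and Tbx5 -0.03. Tbx22 had 0.31, from 668 to 784, and the dim Tbx20 had -0.24. The T-box genes of the list that were measured lay between -0.24 and 0.31.

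Art3, a surface protein of the ADP-ribosyltransferase family that is found in capillary pericytes and in muscle, was the one marker that differed by at least 2-fold. Its brighter probe gave 28.8 ± 6.41 in normal and 63.3 ± 8.09 in high glucose, a log2 ratio of 1.21. The second probe was not well above background in normal glucose, at 24.6 ± 6.83, and gave 37.5 ± 6.85 in high glucose. On these processed signals it was at least 1.48-fold higher. Its log2 ratio was 0.69 with a software error of 0.48, and its median pixels gave a smaller 0.46, below that bound. Both probes thus lay higher in high glucose, the first by 4.24 times the repeat-spot SD of its band. That SD, 0.29, is a median over the whole band below 128. Measured repeat probes with mean signals from 36.2 to 46.3, near that of Art3, had larger SDs, from 0.31 (Dph1) to 0.79 (Olfr74). The software error of the first probe's ratio was 0.37.

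The Art3 difference rests on signals close to the detection limit. The lowest gene spot well above background was 26.9 in normal and 24.0 in high glucose, and 7 of 308 negative control spots in normal and 8 in high glucose were called well above background too. The median pixels of the brighter Art3 spot, less local background, gave a log2 ratio of 0.85, under 2-fold. In the band below 128, 2.45% of 2125 genes were at least as far from 0 as Art3, and the genes of this band had an SD of 0.44. Dim neighbours of the spot were shifted by 0.07.

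Its relatives gave no common direction. Art4, which carries a blood group in humans, had 99.1 in normal and 29.4 in high glucose, a log2 ratio of -1.67, or -1.34 from median pixels; its second probe was not detected well above background on either array. One Art5 probe gave 388 in normal glucose and 12.1, not well above background, in high glucose, at least 15.3-fold lower. The second Art5 probe went the opposite way, from 20.5, not well above background, to 49.2. The 2 Art5 probes contradict each other, so no direction can be given for that gene. Art1 and Art2b were not detected well above background on either array.

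**Figure D3:**
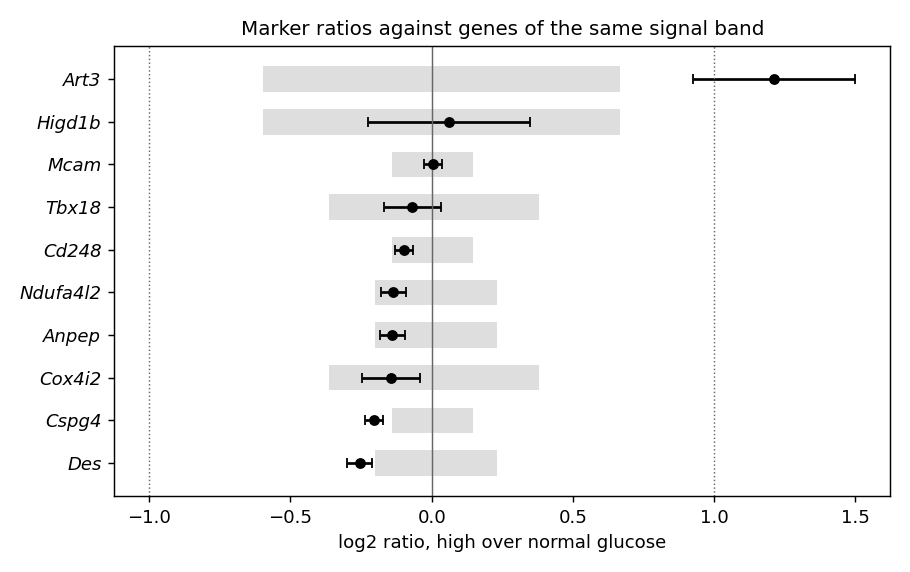
Log2 ratio of high over normal glucose for the 10 markers (points), with the median SD of repeat spots in the same signal band (error bars) and the 5th to 95th percentile of all measured genes of that band (grey). Dotted lines mark 2-fold. Art3 at 1.21 lies beyond the grey range on the high side, Cspg4 at -0.20 and Des at -0.26 beyond it on the low side, and the other 7 lie within it. The signal of Des is close to the lower edge of its band, 512.

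Of the 10 markers, 3 had ratios outside the central 90% of genes of their own signal band: Art3 (98.7% of band genes as low or lower), Cspg4 (1.85%) and Des (2.46%). The next were Anpep at 11.2%, Cd248 at 11.4% and Ndufa4l2 at 11.8%. Mcam, Higd1b, Cox4i2 and Tbx18 lay in the middle of their bands, between 20.5% and 57.6%. The place of Des depends on a band edge. Its mean signal of 564 is close to the lower edge of its band, 512. In the band from 128 to 512 the 5th percentile was -0.36, and a ratio of -0.26 would lie inside that range. The markers were taken by name, but with earlier results of these data known. There was no saturated spot on either array.

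Other genes of pericytes and mural cells, a list of 32 that leaves out the 10, were split evenly. Of the 32, 24 were measured on both arrays, 12 above and 12 below 0, none at least 2-fold different, with 4 at least 1.2-fold higher and 4 at least 1.2-fold lower. Of all measured genes 6.8% were at least 1.2-fold higher and 5.51% at least 1.2-fold lower, shares that are not matched for signal. Except for Aspn, at 1233 in normal and 1483 in high glucose, the list genes past 1.2-fold were dim. Their signals averaged below 128 over the 2 arrays, a band where the SD over genes was 0.44. Their median log2 ratio was 0.01. Pdgfrb, the receptor that recruits pericytes to vessels, had 0.14 from 17471 in normal to 18161 in high glucose, and Rgs5, a G protein regulator often used as a pericyte marker, had 0.58 at the dim signals of 93.9 and 132.8. Gja4, the gap junction protein connexin 37, had -0.66 from 72.6 to 43.5.

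The label was checked against these pericyte genes. Of the 32, 24 (75%) were measured on both arrays, where 67.9% of all 20883 named genes were. The 7 not detected well above background on either array, 21.9% of the list against 28.0% of all named genes, were Kcnj8 and Casq2, a channel and a calcium-binding protein, Vtn, a secreted matrix protein, the transcription factors Foxd1 and Heyl, the ATPase Atp13a5 and the metalloreductase Steap4, all named after their values were seen. Pdgfrb, Cspg4, Mcam, Anpep and Cd248 were bright, and each is shared with smooth muscle cells or fibroblasts, or with endothelium or myeloid cells. Genes of smooth muscle cells and fibroblasts were bright too. Of 14 smooth muscle genes 13 were measured, with Acta2 at 280589 and Tagln at 256910.4 in normal glucose, and of 14 fibroblast genes 11, with 3 (21.4%) detected on neither array. The first fibroblast genes of the list were bright, with Pdgfra at 3674 and Col1a1 at 128738. Genes of mural cells and of fibroblasts were thus both present on these arrays. The share of a list that was measured does not single out these cells. It was 100% for immune cell genes and 80% for Schwann cell and glial genes. It was 50% for endothelial and for epithelial genes, 42.9% for adipocyte and 16.7% for striated muscle genes.

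**Figure D4:**
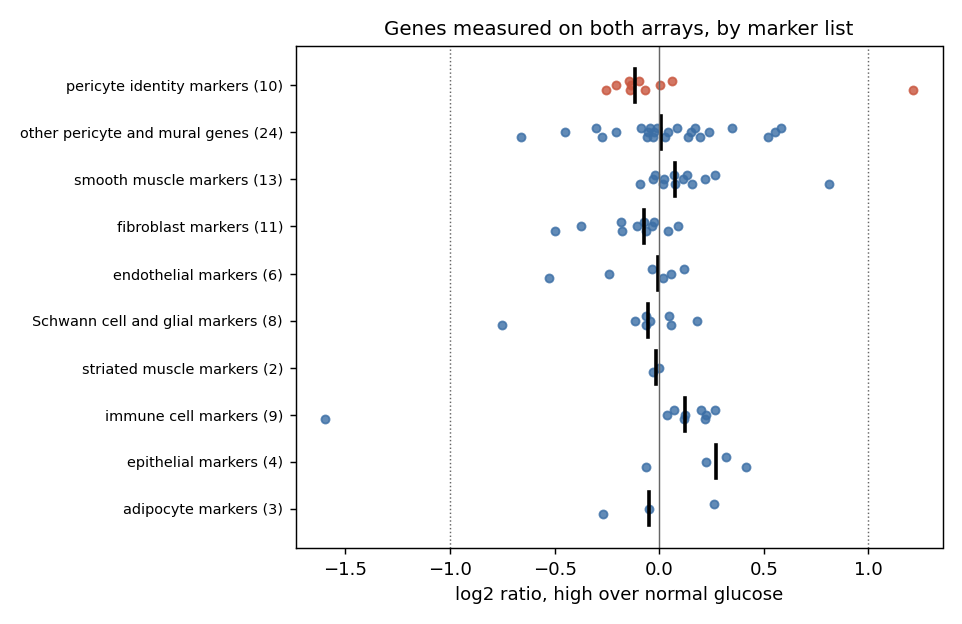
Log2 ratio of high over normal glucose for each gene measured on both arrays, by list (number of genes in parentheses), with the list's median as a black bar and 2-fold as dotted lines. The pericyte identity markers (red) have a median of -0.12, and apart from Art3 lie between -0.26 and 0.06.

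Markers of other cells were read beside the 10 because several of the 10 are shared with them. In pooled RNA, fewer cells of a type and less RNA per cell cannot be told apart. Smooth muscle genes had a median log2 ratio of 0.07 with 10 of 13 above 0, or 8 of 13 with quantile normalization and with median centring. Mylk, the myosin light chain kinase, had 0.27, Myocd, a coactivator of the contractile programme, 0.81 at the dim signals of 33.0 and 54.7, and Acta2 and Tagln 0.02 each. Their summed signal differed by 0.03 on the log2 scale. Such a sum takes every gene of a list on the array, detected or not, so a few genes can set it. Des, a gene of this programme, went the other way at -0.26.

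Fibroblast genes had a median of -0.07, with 9 of 11 below 0, and a summed signal that differed by 0.00. Fap, a protease of activated fibroblasts, had -0.37, the dim Clec3b -0.50, Pdgfra -0.07 and Col1a1 0.04. Anpep at -0.14 and Cd248 at -0.10, which fibroblasts share, lay on the same side as this list, and the part of such cells in those values was not tested. The summed signal of the list was 1173464 in normal and 1112393 in high glucose before scaling.

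Endothelial genes, which bear on Mcam, were measured for 6 of 12, with a median of -0.01 and a summed signal that differed by 0.01. Cdh5 was not detected well above background on either array, and neither were Tek, Emcn, Cldn5, Erg and Tie1. Pecam1 had a dim 82.9 and 85.1. Brighter genes of this list, named after their values were seen, were Kdr and Egfl7. Kdr gave 7379 in normal and 7075 in high glucose, a log2 ratio of 0.02, with -0.27 on its other measured probe. Egfl7 gave 4996 and 4919, a log2 ratio of 0.06. Vwf had -0.53 from a dim 74.0, and Flt1 -0.24 from 1432 in normal to 1146 in high glucose. Striated muscle genes, which bear on Des and Art3, were measured for 2 of 12, Acta1 and Tnnt2, with log2 ratios of 0.00 and -0.03. Myod1 and Myog were not detected well above background on either array, at 13.0 and 6.75 in normal glucose. Schwann cell and glial genes, which bear on Cspg4, were measured for 8 of 10, with a median of -0.05 and a summed signal that differed by 0.04. Pdgfa gave 39109 of that sum of 46346 in normal glucose. Sox10 had -0.04, Foxd3 0.18 and the dim Cdh19 -0.75.

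Immune cell genes, which bear on Anpep, were measured for 9 of the 9 matched. Their median was 0.12 with 8 above 0, and their summed signal differed by 0.13. Ptprc, the leukocyte antigen CD45, had a dim 39.1 and 42.5. Cd74, the invariant chain, was the 1 gene below 0, with -1.60 from 89.2 to 27.9 and -0.59 from median pixels. Brighter genes, named after their values were seen, were Itgam at 21959 in normal and 22557 in high glucose and Csf1r at 4682 and 4820. Both had 0.12. Other measured probes ran from -0.49 to -0.22 for Itgam and from -0.14 to 0.03 for Csf1r. Epithelial genes were measured for 4 of 8, with Epcam and Cdh1 not detected well above background on either array, Krt14 at 0.41 and Esrp1 at 0.32. Their median was 0.27 and their summed signal differed by -0.20. That sum includes 1 gene that was well above background in normal glucose only, described at the end. Adipocyte genes were measured for 3 of 7, with a median of -0.05 and a summed signal that differed by 0.21. Adipoq and Plin1 were not detected well above background on either array, Lpl had -0.27 and Fabp4 0.26. Fabp4 gave 12227 of the sum of 15100 in normal glucose.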

How the data were processed

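Gene expression was measured in 2 RNA pools, 1 per glucose condition, grouped by the treatment label. The deposited intensity values come from 1-colour Cy3 scans read with Feature Extraction 11.5.1.1, per the file headers; Agilent Feature Extraction is given as 9.3.2.1 in the submitters' processing notes, and the difference was not resolved. The processed signal had its background subtracted and was not scaled between arrays, and spot flags of 0 or 1 come from the same software, per the file headers. In the value table that the authors deposited, values matched the mean processed signal for 99.8% of 55681 probes (relative tolerance 0.0001); its column medians were 49.6 and 48.9.

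From 59305 gene spots (56.3% and 57.6% well above background), log2 processed signals were averaged per probe, and each array's 75th percentile, 774 and 733, was subtracted. The lower percentile in high glucose adds 0.08 to every log2 ratio. RefSeq accessions without versions were matched to the GRCm38.p6 gene table: 27503 probes had 1 symbol, 28178 none and 0 several. The array header names mm9, so no probe or gene coordinates are given; the 2 upstream windows carry the coordinates of the RefSeq build. A gene was read from its brightest probe and counted as measured when at least 0.5 of its spots were well above background on both arrays. "At least" folds compare the detected side with the dim probe itself or, if brighter, with the dimmest spot that was well above background. Median pixel ratios use pixel medians less local background.

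The markers and gene lists were chosen with earlier results of these data known. Named were all 10 markers, list genes at least 2-fold different or otherwise the 2 with the largest ratios, the first 2 of each list, and family members; 1 gene that this rule takes is not reported here. Counting was tested on simulated data. Python 3.11.15, numpy 2.4.6, pandas 2.3.3, R 4.3.3 and limma 3.58.1 (for the alternatives) were used. With 1 array per condition no test was possible. The alternatives were 3 other scalings, 2 pixel-based settings, the deposited table, no dim filter, outlier spots left out, the median over probes and, added later, dim markers left out.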

Additional observations from a re-analysis of the deposited data

How the results depend on the processing

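Under 9 other settings of the processing Cspg4, Anpep, Cd248, Des, Cox4i2, Ndufa4l2 and Tbx18 stayed below 0, Des between -0.32 and -0.24 and Cspg4 between -0.27 and -0.19; Art3 stayed above 0, between 0.41 and 1.22, and Mcam and Higd1b took either sign. The count of markers at least 2-fold different, 1, became 0 with normexp and an offset of 50 (Art3 at 0.41) and 0 with median pixels less local background (Art3 at 0.84); the offset by itself shrinks ratios of dim probes. It was also 0 when markers below a signal of 128 were left out, an alternative chosen after the data were seen, since Art3 is one of them. The median log2 ratio of the markers, -0.12, was -0.18 with median centring, which moved the median of all genes to -0.07. Over all named genes the count at least 2-fold different, 130, was 38 with normexp and 1272 with no filter on dim probes. Normexp was run on median pixel signals in place of mean pixel signals. In every other setting the count of markers at least 2-fold different, their median and the count over all genes stayed within 1.5 times or within a repeat-spot SD of the reported value. The count of markers at least 1.2-fold different, 1, was 3 with median centring and 2 with median pixels less local background. Median centring also lowered every list's log2 ratios by 0.06, so that the medians became 0.01 for smooth muscle, 0.06 for immune, -0.13 for fibroblast and -0.11 for Schwann cell and glial genes, and 5 in place of 3 of 6 endothelial genes lay below 0. No paired analysis was possible because each condition has 1 array, and for the same reason no replicate could be left out. Signal over background limits Art3, Higd1b and the second Mcam probe.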

Other observations

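A list gene that stands in no comparison above, other than the summed signal of its list, was well above background on 1 array only. It was picked once its values were known. The summed signal of its list, the epithelial one, was 950 in normal and 783 in high glucose before scaling. Cldn4, a tight junction protein of the epithelial list, gave 148 in normal glucose and 6.11, not well above background, in high glucose, at least 5.85-fold lower, with dim neighbours shifted by -0.50; its second probe was not detected well above background on either array.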
